A study of Mus musculus with 4 samples.

Results

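The AMPK, sestrin and mTORC1-restraining genes were described in cultured mouse colon group 2 innate lymphoid cells (ILC2s), tissue lymphocytes without antigen receptors that make type 2 cytokines. The set was fixed by name and held 10 genes: the AMPK subunit genes Prkaa1, Prkab1 and Prkag1, the kinase gene Stk11, the sestrin genes Sesn1, Sesn2 and Sesn3, the REDD1 gene Ddit4, and Tsc1 and Tsc2. All 10 were found among the 55487 gene IDs of the table, and all 10 passed the filter on low counts that left 19194 genes. RNA from 2 samples treated with FK866 for 16 h and 2 control samples was sequenced. FK866 is a small-molecule inhibitor of NAMPT, the enzyme that recycles nicotinamide into NAD+. Cells of both groups were sorted from the gut and grown with the cytokines IL-33, IL-25, IL-7 and IL-2. The labels give no dose, no vehicle, no mouse strain or age, and do not say whether the replicates came from separate animals or cultures, so p-values measure the scatter among the 4 libraries alone, and that scatter may be technical.

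AMPK is a heterotrimeric kinase with a catalytic alpha, a scaffolding beta and a nucleotide-binding gamma subunit. It is switched on when AMP rises relative to ATP and when the kinase LKB1 (Stk11) phosphorylates it, and it then turns down anabolic processes. The TSC complex restrains the growth kinase mTORC1 by inactivating the GTPase Rheb; AMPK and REDD1 (Ddit4) act on TSC, whereas sestrins restrain mTORC1 through the amino acid sensing GATOR complexes. In lymphocytes mTORC1 drives growth and proliferation after cytokine stimulation. These proteins are controlled largely by phosphorylation and binding, which RNA levels do not report.

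Library totals ranged from 27617750 to 32241615 counts with FK866 and from 32540325 to 37841233 in controls. At least 10 counts were found for 22461 gene IDs in FK866 replicate 2, and for 17152 to 18667 gene IDs elsewhere. All 13 listed ILC2 markers were measured, of which 1 was called higher with FK866 (Rora) and 3 lower (Id2, Il13 and Nmur1). At an unadjusted p under 0.05 by edgeR, 6 were lower and 2 higher, and DESeq2 called 4 lower and 2 higher. For 8 markers both FK866 libraries lay below both controls, and for 2 above. Of all tested genes 29.3% lay below and 28.4% above in this way. Gata3, the factor that specifies ILC2s, was at 698.6 to 841.8 CPM with FK866 and 947.0 to 1082 CPM in controls. Rora, a factor required for ILC2 development, was at 1128 to 1185 CPM with FK866 and 337.3 to 374.6 CPM in controls, and Id2 was at 538.0 to 646.0 CPM with FK866 and 936.9 to 1250 CPM in controls. CPM gives counts relative to the TMM-scaled total of a library. Summed over 7 T cell markers the level was 17.8 to 18.7 CPM with FK866 and 17.8 to 18.7 CPM in controls, most of it Cd3g and Cd3e, with Trac at no more than 0.399 CPM. The sum over 7 ILC3 markers, mostly Il22 and Il17f, was 142.1 to 271.2 CPM with FK866 and 170.3 to 285.4 CPM in controls, and Il17f and Il23r were called higher with FK866, Il23r not without FK866 replicate 1 (log2 1.54, against 2.05 with all libraries). Over 9 myeloid and mast cell markers it was 13.2 to 14.7 CPM with FK866 and 4.79 to 6.93 CPM in controls. Cd68 (8.29 to 9.23 CPM with FK866, 3.13 to 3.47 CPM in controls) was called higher. The macrophage marker Adgre1 was at 3.45 and 1.15 CPM with FK866 and 0.165 and 0.951 CPM in controls and did not pass (log2 2.04). Itgam did not exceed 0.0614 CPM, but 68.7% of its exon bases overlap Gm49368 on the same strand, so reads from it may not have been counted. The other sums were 61.3 to 77.0 CPM with FK866 and 88.8 to 121.7 CPM in controls for 6 B cell markers (mostly Ighm and Cd79b), 40.2 to 95.6 CPM with FK866 and 79.6 to 121.8 CPM in controls for 7 NK cell and ILC1 markers (mostly Gzmb), and 231.4 to 254.5 CPM with FK866 and 199.4 to 227.1 CPM in controls for 10 epithelial and stromal markers (mostly Pecam1, with Epcam next and Krt8 at 0 in all 4 libraries). The part of such differences in the results below was not tested.

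Of the 10 genes, Tsc1 and Sesn3 were higher in FK866-treated cells, each close to a doubling, and the other 8 did not pass the test. The call was made with edgeR's quasi-likelihood test at a Benjamini-Hochberg adjusted p under 0.05 over all tested genes. In that fit 13.2% of all tested genes were called, 5.31% higher and 7.89% lower, that is 1020 genes higher and 1514 lower. These shares are the background for the edgeR counts of each list below. Fold changes rose with transcript length (rho = 0.332 by Spearman over 9296 protein-coding genes). Sesn3 (9125 nt) and Tsc1 (7702 nt) have the longest transcripts of the 10 genes, followed by Tsc2 (6266 nt). With a trend on transcript length and GC content removed the split was 1583 higher and 1345 lower, and Tsc1 and Sesn3 were still the members called. None of the 10 genes was called lower by edgeR (0 at an unadjusted p under 0.05, and 0 by DESeq2). The median log2 fold change over the 10 genes was 0.13, against 0.03 over all tested genes. The FK866 and control libraries did not overlap for 4 of the 10 genes, all higher with FK866 (Tsc1, Sesn3, Prkaa1 and Tsc2). Of all tested genes 57.7% separated the groups in this way, 28.4% with FK866 higher and 29.3% with FK866 lower. As these are bulk samples, fewer cells that express a gene and less RNA of it per cell cannot be told apart.

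**Figure D1:**
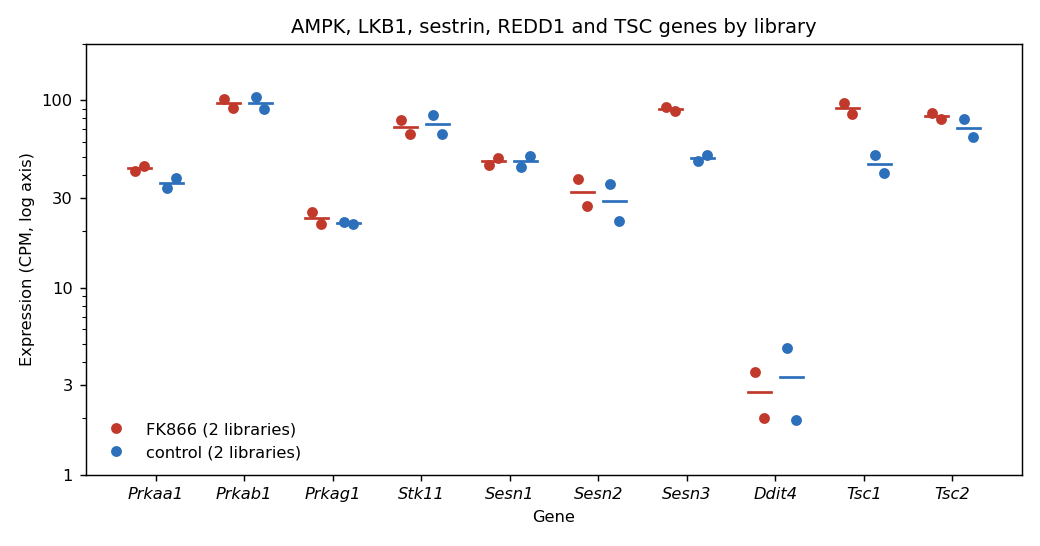
Expression of the 10 genes in CPM on a log axis, with each point a library and each bar the mean of 2 libraries (FK866 red, control blue). Tsc1 and Sesn3 stand apart between the groups, Ddit4 lies far below the rest at 1.96 to 4.73 CPM, and Sesn2 spreads as widely within a group as between groups.

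Tsc1 encodes hamartin, the scaffold of the TSC complex (ENSMUSG00000026812, mm10 chromosome 2, 28641228 to 28691167, plus strand). It stood at 97.2 and 84.2 CPM in FK866 replicates 1 and 2, against 50.8 and 40.9 CPM in control replicates 1 and 2. Both FK866 libraries lay above both controls, and the log2 fold change was 0.98 ± 0.16 (SE), with an edgeR adjusted p of 0.00779. Leaving out each library in turn gave 0.78 to 1.10, and the call held each time. The 250 bases upstream of its RefSeq start (GRCm38.p6, chr2:28640983-28641232, plus strand) are shown because Tsc1 changed most of the 10, with the capitals marking the core of a cAMP response element (TGACG) read on the opposite strand.
Tsc1: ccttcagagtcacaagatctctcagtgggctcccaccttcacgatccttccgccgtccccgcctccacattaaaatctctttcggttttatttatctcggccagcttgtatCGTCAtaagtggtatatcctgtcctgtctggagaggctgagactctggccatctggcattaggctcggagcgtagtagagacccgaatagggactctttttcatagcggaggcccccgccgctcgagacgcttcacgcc

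Tsc2 encodes tuberin, the subunit that inactivates Rheb (ENSMUSG00000002496, chromosome 17, 24595816 to 24632630, minus strand). It stood at 85.6 and 79.8 CPM with FK866, against 79.2 and 63.6 CPM in controls. The groups touched without overlapping, and the log2 fold change of 0.21 ± 0.16 (SE) did not pass (edgeR adjusted p = 0.434). For Tsc2, 7.20% of the exon bases overlap Pkd1 on the other strand, whose reads cannot be told apart in libraries that do not mark the strand.

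The subunits of the TSC complex differed in how their RNA moved. Tbc1d7, the remaining subunit, which binds TSC1 and stabilises the complex, fell to 11.6 and 9.15 CPM with FK866, against 31.3 and 24.8 CPM in controls. Its log2 fold change was -1.44 ± 0.23 (SE; edgeR adjusted p = 0.00629), and leaving out 1 library gave -1.71 to -1.26. The log2 ratio of Tsc1 to Tbc1d7 within a library was 3.07 and 3.20 with FK866 and 0.70 and 0.72 in controls. The log2 ratio of Tsc1 to Tsc2 was 0.18 and 0.08 with FK866 and -0.64 in each control. The ratios of both pairs separated the groups, with a two-sided exact permutation p of 0.333 for each, the smallest that 2 libraries against 2 allow.

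Of the 9 listed genes around TSC (Tbc1d7, the Rheb genes, a REDD1 paralog and kinases that act on TSC), 2 fell and 0 rose by edgeR (1 higher at an unadjusted p under 0.05, 0 by DESeq2), with a median log2 fold change of -0.24. The second was Akt1, the kinase that inhibits TSC2 downstream of PI3K, at 58.1 and 39.0 CPM with FK866 and 148.4 and 86.5 CPM in controls (log2 -1.27 ± 0.27, SE). Rheb, the GTPase that TSC restrains, had overlapping libraries (log2 0.11, not past the test). Akt2 was at -0.37 and did not pass, though it was called lower without control replicate 2 (-0.57), with the length and GC trend removed (-0.39, with and without the block) and with the replicate block (-0.35).

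**Figure D2:**
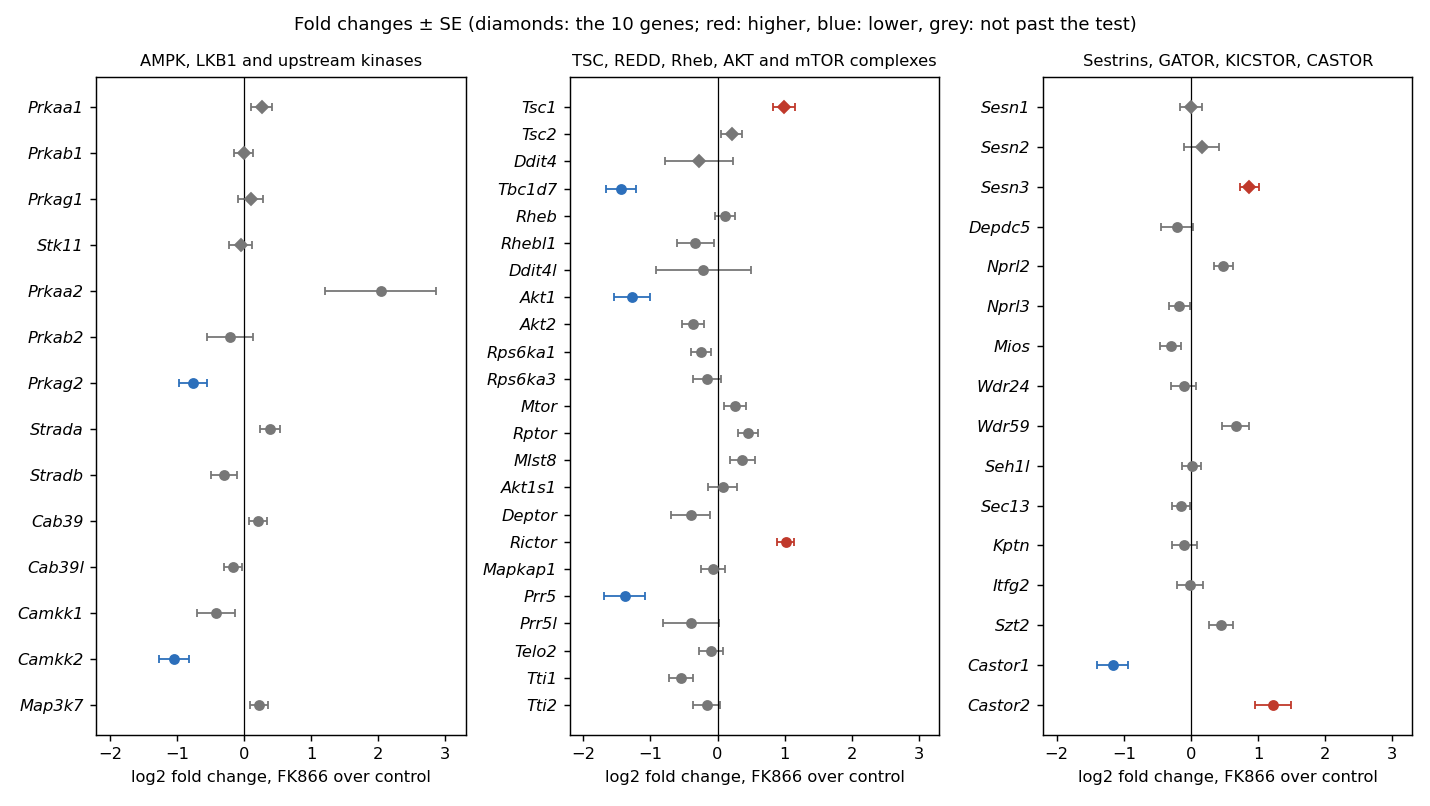
Log2 fold change of FK866 over control with its SE for the 10 genes (diamonds) and for tested genes of the listed partner complexes (circles), in 3 panels by role. Tsc1 lies to the right and Tbc1d7 to the left of 0 within the TSC complex, Castor2 and Castor1 lie on opposite sides, and the AMPK subunits Prkaa1, Prkab1 and Prkag1 lie near 0.

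Sesn3 was the one sestrin gene that changed. Sestrins are stress-induced proteins that bind GATOR2 and so restrain mTORC1, and in mammalian cells Sesn3 is a known FOXO target. Sesn3 (ENSMUSG00000032009, chromosome 9, 14275067 to 14333101, plus strand) stood at 92.1 and 87.7 CPM with FK866, against 47.5 and 50.9 CPM in controls. Its libraries lay close within each group and far apart between groups, with a log2 fold change of 0.87 ± 0.14 (SE) and an edgeR adjusted p of 0.007. Without 1 library the value lay between 0.72 and 0.93, and the call held each time. The 250 bases before its RefSeq start (GRCm38.p6, chr9:14276051-14276300, plus strand) are shown as those of the other gene that rose, with 4 CCAAT boxes in capitals, all read on the opposite strand (ATTGG). These bases lie inside the gene as placed above, whose start at 14275067 lies further upstream and was not examined.
Sesn3: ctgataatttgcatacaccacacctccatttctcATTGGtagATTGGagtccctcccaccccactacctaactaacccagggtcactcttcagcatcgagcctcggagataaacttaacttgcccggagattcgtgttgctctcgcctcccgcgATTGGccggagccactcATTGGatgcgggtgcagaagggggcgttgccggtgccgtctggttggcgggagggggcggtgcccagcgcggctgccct

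Sesn1, which is induced by p53 and FOXO factors (ENSMUSG00000038332, chromosome 10, 41809935 to 41908424, plus strand), stood at 45.0 and 49.3 CPM with FK866, against 44.0 and 50.3 CPM in controls. The groups overlapped fully, and the log2 fold change was 0.00 ± 0.16 (SE; edgeR adjusted p = 1.00). Sesn2, a leucine-binding sestrin induced by ATF4 and p53 (ENSMUSG00000028893, chromosome 4, 132492032 to 132510501, minus strand), stood at 38.0 and 27.2 CPM with FK866, against 35.7 and 22.6 CPM in controls. In both groups replicate 1 was the higher library, and the log2 fold change of 0.16 ± 0.26 (SE) did not pass (edgeR adjusted p = 0.756). It was 0.43 without control replicate 1, 0.40 without FK866 replicate 2, -0.14 without control replicate 2 and -0.20 without FK866 replicate 1, so its direction rested on single libraries.

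The change in Sesn3 altered the makeup of sestrin RNA. Per kb of annotated exon, Sesn3 held 21.3% and 22.1% of the sestrin total with FK866, against 12.7% and 14.8% in controls. Sesn1 held 40.0% and 47.7% with FK866, against 45.2% and 56.3% in controls, and Sesn2 38.6% and 30.1% with FK866, against 42.0% and 28.9% in controls. The shares of Sesn3 did not overlap between groups, whereas those of Sesn1 and Sesn2 did. The log2 ratio of Sesn3 to Sesn1 was 1.03 and 0.83 with FK866 and 0.11 and 0.02 in controls (two-sided exact permutation p = 0.333, the smallest possible). The level of Sesn3 in these shares depends on its long exon length of 15269 nt, and with the longest transcript (9125 nt) in its place Sesn3 held a mean of 31.2% with FK866 and 20.7% in controls.

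**Figure D3:**
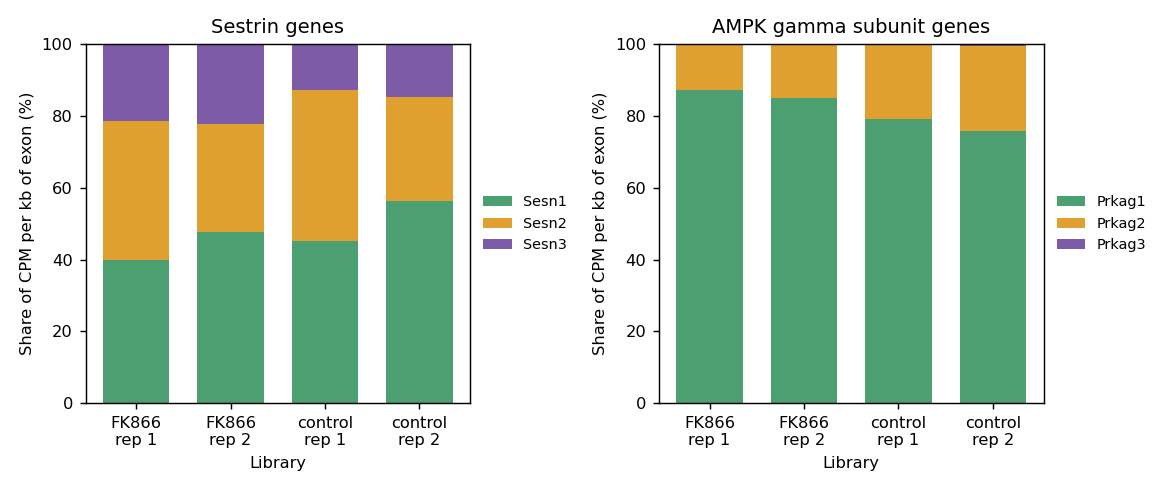
Share of each gene in the summed CPM per kb of exon of the 3 sestrin genes (left) and of the 3 AMPK gamma subunit genes (right), with 1 stacked bar per library. The Sesn3 segment is larger in both FK866 libraries (21.3% and 22.1%) than in both controls (12.7% and 14.8%), and the Prkag2 segment is smaller (12.8% and 14.8% with FK866, 21.0% and 23.6% in controls).

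Among the complexes that sestrins act on, the share of genes called was close to that of all tested genes (13.2%). Of 13 measured genes of GATOR1, GATOR2, KICSTOR and the CASTOR arginine sensors (15 were listed and 2 symbols had no match), 1 rose and 1 fell by edgeR, with a median log2 fold change of -0.10. Both were CASTOR genes, and they moved in opposite directions. Castor1 was at 28.6 and 33.7 CPM with FK866 and 53.6 and 86.3 CPM in controls (log2 -1.17 ± 0.23, SE, edgeR adjusted p = 0.0137). Castor2 was at 12.3 and 12.7 CPM with FK866 and 4.46 and 6.23 CPM in controls (log2 1.23 ± 0.27, SE, edgeR adjusted p = 0.0209). The log2 ratio of Castor2 to Castor1 was -1.21 and -1.41 with FK866 and -3.59 and -3.79 in controls. Neither CASTOR call held with the length and GC trend removed (-0.85 for Castor1 and 1.01 for Castor2). Among genes that did not pass, the GATOR1 subunit gene Nprl2 was at 0.48 and the GATOR2 gene Wdr59 at 0.67 on the log2 scale. Both lay near the threshold: Nprl2 passed under 7 of the 13 alternatives (0.49 to 0.78) and Wdr59 under 8 (0.59 to 0.75), the replicate block among them (0.49 for Nprl2 and 0.67 for Wdr59). DESeq2 called 3 genes of this list higher and 1 lower.

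The AMPK subunits that ILC2s mainly expressed did not pass the test. Prkaa1, the catalytic alpha1 subunit (ENSMUSG00000050697, chromosome 15, 5143861 to 5181899, plus strand), stood at 42.0 and 44.8 CPM with FK866, against 34.1 and 38.3 CPM in controls. The groups did not overlap, and the log2 fold change was 0.26 ± 0.16 (SE; edgeR adjusted p = 0.337). Prkab1, the beta1 scaffold (ENSMUSG00000029513, chromosome 5, 116013586 to 116024508, minus strand), stood at 101.7 and 91.2 CPM with FK866, against 104.1 and 89.8 CPM in controls. Its FK866 libraries lay inside the range of the controls (log2 -0.01 ± 0.14, SE, edgeR adjusted p = 0.986). Prkag1, the nucleotide-binding gamma1 subunit (ENSMUSG00000067713, chromosome 15, 98812797 to 98831521, minus strand), stood at 25.4 and 21.9 CPM with FK866, against 22.4 and 21.9 CPM in controls (log2 0.09 ± 0.19, SE, edgeR adjusted p = 0.807). Its libraries overlapped, and 43.7% of its exon bases are shared with the noncoding gene B130046B21Rik on the other strand.

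Prkaa1, Prkab1 and Prkag1 were the main isoforms in both groups. Per kb of exon Prkaa1 held 98.8% and 98.6% of alpha subunit RNA with FK866, against 99.7% and 99.5% in controls. Prkab1 held 96.1% and 96.9% of beta subunit RNA with FK866, against 95.3% and 96.7% in controls. Prkag1 held 87.1% and 84.9% of gamma subunit RNA with FK866, against 79.0% and 75.9% in controls, a range that did not overlap. The difference lay mainly in Prkag2, the gamma2 gene, at 11.1 and 11.4 CPM with FK866 and 17.7 and 20.3 CPM in controls (log2 -0.76 ± 0.21, SE, edgeR adjusted p = 0.0461). That call was near the threshold and was lost without control replicate 2 (-0.65), without FK866 replicate 1 (-0.83), without FK866 replicate 2 (-0.75), with the length and GC trend removed (-0.68), with no filter (-0.80) and under all 3 other scalings (-0.73 to -0.70), and 14.5% of its exon bases overlap genes on the other strand. Prkaa2, the alpha2 gene typical of muscle, had only 24 and 36 counts with FK866 and 6 and 10 in controls, and did not pass (log2 2.04 ± 0.83, SE).

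Stk11 encodes LKB1, the main kinase upstream of AMPK (ENSMUSG00000003068, chromosome 10, 80115803 to 80130682, plus strand). It stood at 78.7 and 66.0 CPM with FK866, against 83.9 and 66.3 CPM in controls. The libraries overlapped (log2 -0.05 ± 0.17, SE, edgeR adjusted p = 0.887), and 5.07% of its exon bases are shared with Cbarp on the other strand. Strada, the pseudokinase that activates LKB1, was at 0.38 on the log2 scale and did not pass either, though it did under 4 alternatives (0.38 to 0.50), the replicate block among them (0.38). Camkk2, the calcium-dependent AMPK kinase, was at 9.34 and 7.88 CPM with FK866 and 19.1 and 16.5 CPM in controls. Its log2 fold change of -1.05 ± 0.23 (SE) passed (edgeR adjusted p = 0.0191), though not without FK866 replicate 2 (-0.91). In the list of 10 measured subunit and upstream kinase genes outside the 10, Prkag2 and Camkk2 fell and 0 rose by edgeR (2 higher at an unadjusted p under 0.05, 0 by DESeq2), with a median of -0.19.

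AMPK substrates and AMPK-related kinases, which LKB1 also activates, rose more often than they fell. Of 17 measured genes, 5 rose and 0 fell by edgeR (1 lower at an unadjusted p under 0.05, 0 by DESeq2), and the median log2 fold change was 0.36. Sik1, a salt-inducible kinase that restrains CREB coactivators, was at 42.4 and 35.4 CPM with FK866 and 19.3 and 14.4 CPM in controls (log2 1.21 ± 0.21, SE, edgeR adjusted p = 0.00867). Its relative Sik2 rose by 1.14 ± 0.21 (SE) on the log2 scale, and part of its exons overlaps Ppp2r1b on the other strand. The CREB coactivator genes Crtc2 and Crtc3, whose products SIKs and AMPK phosphorylate, rose by 0.98 and 0.78. Ulk1, the autophagy-starting kinase, was the fifth call (0.85) and lies outside the rule for named genes, so it was chosen after its values were seen. It did not pass without FK866 replicate 1 (0.54). Acaca, the acetyl-CoA carboxylase that AMPK inhibits, had a log2 fold change of -0.18 that did not pass, though it was called lower at -0.45 when the replicate block was combined with removal of the length and GC trend.

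Ddit4 encodes REDD1, which releases TSC2 from inhibition under hypoxia, energy stress and glucocorticoids (ENSMUSG00000020108, chromosome 10, 59949669 to 59951834, minus strand). It was the least expressed of the 10 genes, with 96 and 68 counts with FK866 and 172 and 64 counts in controls. These are 3.56 and 2.00 CPM with FK866, against 4.73 and 1.96 CPM in controls. Both FK866 libraries lay within the range of the controls, and the log2 fold change of -0.28 ± 0.50 (SE) did not pass (edgeR adjusted p = 0.790). Its direction turned with single libraries: 0.39 without control replicate 1 and 0.10 without FK866 replicate 2, but -0.78 without control replicate 2 and -0.84 without FK866 replicate 1.

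Ddit4 and Sesn2 are known ATF4 targets, and neither passed while other genes of that list rose. Of 13 measured genes, 7 rose and 0 fell by edgeR (0 lower at an unadjusted p under 0.05, and 0 by DESeq2), with a median of 1.19. Asns, asparagine synthetase, was at 170.2 and 134.3 CPM with FK866 and 68.0 and 48.7 CPM in controls (log2 1.38 ± 0.19, SE, edgeR adjusted p = 0.00437). Ddit3, which encodes the stress factor CHOP, rose by 1.29, the pseudokinase gene Trib3 by 2.05 and the stress-response gene Nupr1 by 1.19 on the log2 scale. The other called genes were Atf4 itself (0.50), the glutathione-degrading Chac1 (2.03) and the cystine transporter Slc7a11 (2.61). The calls of Atf4 (0.27) and Chac1 (1.28) were lost without FK866 replicate 1 and that of Slc7a11 (2.19) without FK866 replicate 2, and Atf4 (0.46) did not pass with no filter either. The log2 ratio of Asns to Sesn2 was 2.16 and 2.31 with FK866 and 0.93 and 1.11 in controls (two-sided exact permutation p = 0.333, the smallest possible). The serine synthesis genes Psat1 (0.01) and Phgdh (-0.19) did not pass.

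**Figure D4:**
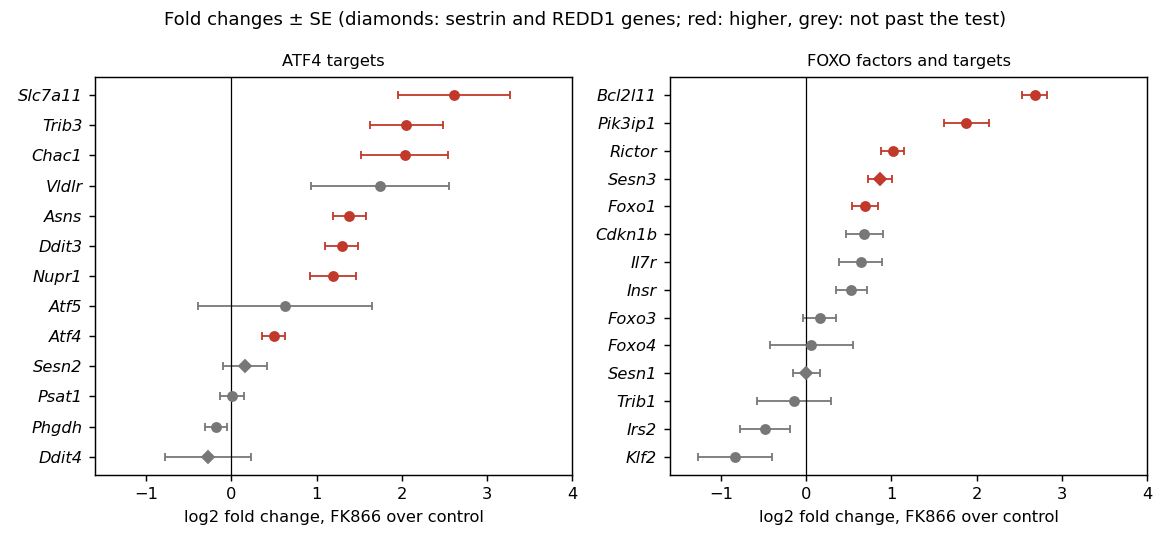
Log2 fold change of FK866 over control with its SE for the measured genes of the ATF4 target list (left) and of the FOXO list (right), sorted by value, with sestrin and REDD1 genes as diamonds and genes past the test in red. Sesn2 (0.16) and Ddit4 (-0.28) lie at the low end of the ATF4 list, while Sesn3 (0.87) lies among the called genes of the FOXO list and Sesn1 (0.00) does not.

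The FOXO list, which holds Sesn1 and Sesn3, had 5 of 14 genes higher and 0 lower by edgeR (0 lower at an unadjusted p under 0.05, and 0 by DESeq2), with a median of 0.59. Beside Sesn3, the calls were the pro-apoptotic Bcl2l11 (log2 2.68), the PI3K inhibitor gene Pik3ip1 (1.88), the mTORC2 subunit gene Rictor (1.01) and Foxo1 (0.69). Foxo1 did not pass without FK866 replicate 1 (0.46). Foxo3 was at 0.16 and did not pass. Among genes with a negative value, Irs2 (-0.48) and Klf2 (-0.84) did not pass. Irs2 was called lower with the replicate block (-0.48), also when the length and GC trend was removed with it (-0.64). Its value was more negative without FK866 replicate 1 (-1.03) and without control replicate 2 (-0.84). The libraries of 9 genes of the list separated with FK866 higher, and of 1 with FK866 lower (Klf2). Of all tested genes 28.4% separated with FK866 higher and 29.3% with FK866 lower. DESeq2 called 8 genes of the list higher and 0 lower. Of 13 measured p53 targets, a list that includes Sesn1 and Sesn2, 1 rose and 3 fell by edgeR, with a median of -0.30. At an unadjusted p under 0.05 5 were lower, and DESeq2 called 5 lower. The edgeR calls were Trp53inp1 (0.64), Phlda3 (-1.13), Bax (-0.64) and Ccng1 (-0.57). Without FK866 replicate 1 Phlda3 was at -1.72, Bax at -0.97 and Ccng1 at -0.87, all 3 called. None of these 4 calls held without FK866 replicate 2 (0.62 for Trp53inp1, -0.74 for Phlda3, -0.42 for Bax and -0.38 for Ccng1), and that of Trp53inp1 did not hold without FK866 replicate 1 either (0.59). With the length and GC trend removed all 3 falling calls were lost (-0.69 for Phlda3, -0.13 for Bax and -0.48 for Ccng1), and with DESeq2 size factors those of Bax (-0.61) and Ccng1 (-0.55) were. With no filter Trp53inp1 (0.59) and Ccng1 (-0.61) did not pass. Cdkn1a (-0.80) and Aen (-0.55) did not pass as reported, with both FK866 libraries below both controls. Both were called lower under some alternatives, among them DESeq2 (-0.77 for Cdkn1a and -0.53 for Aen) and the replicate block (-0.80 and -0.54). Ddit4 also belongs to a list of 13 glucocorticoid and hypoxia responsive genes. Of these 13, 2 rose and 0 fell by edgeR (2 lower at an unadjusted p under 0.05, 0 by DESeq2), with a median of 0.26. Per1, a clock gene, rose by 1.79, and Tsc22d3, which encodes GILZ, by 1.02, the second not past the test without FK866 replicate 2 (0.86). Fkbp5 (-0.42) and Pdk1 (-0.41) were the 2 lower at an unadjusted p under 0.05. With the replicate block both were called lower (-0.41 each), and Egln3 (0.63), Vegfa (1.02) and Adm (2.12) were called higher.

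In the mTOR complexes themselves, 1 of 12 measured genes rose and 1 fell, with a median of -0.08. Of all tested genes 5.31% were called higher and 7.89% lower. Rictor, the defining subunit of mTORC2, was at 202.3 and 187.6 CPM with FK866 and 93.5 and 99.6 CPM in controls (log2 1.01 ± 0.13, SE, edgeR adjusted p = 0.00323). Prr5, which encodes a RICTOR-binding protein, was at 2.63 and 2.82 CPM with FK866 and 6.69 and 7.55 CPM in controls (log2 -1.38 ± 0.31, SE). The call of Prr5 was lost with the length and GC trend removed (-1.03). Mtor (0.26) and Rptor, the defining subunit of mTORC1 (0.45), did not pass, although Rptor did under 5 of the 13 alternatives (0.46 to 0.53), namely library totals, upper quartile, the stricter filter, DESeq2 and the replicate block (0.46). Of 10 measured mTORC1 effector genes, 2 rose and 0 fell by edgeR (2 lower at an unadjusted p under 0.05, 0 by DESeq2), with a median of -0.04. Eif4ebp1, the translation repressor that mTORC1 inactivates, was at 107.0 and 91.8 CPM with FK866 and 58.8 and 48.6 CPM in controls (log2 0.89 ± 0.16, SE, edgeR adjusted p = 0.00991). Its paralog Eif4ebp2 went the other way, at 37.7 and 31.3 CPM with FK866 and 49.2 and 49.0 CPM in controls. Its log2 fold change of -0.51 ± 0.17 (SE) did not pass (edgeR adjusted p = 0.077). Eif4ebp2 was called lower under some alternatives, among them the replicate block (-0.52) and correction for transcript length and GC content (-0.64). Lpin1, a phosphatidate phosphatase held in the cytoplasm by mTORC1, rose by 0.59, a call lost without FK866 replicate 1 (0.39), without FK866 replicate 2 (0.71) and with no filter (0.55). The S6 kinase genes Rps6kb1 (-0.35) and Rps6kb2 (-0.32) did not pass, though Rps6kb1 did with the length and GC trend removed (-0.44, with and without the block).

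Set in order by level per kb of annotated exon, Prkab1 was the most abundant of the 10 genes, at 31.5 ± 2.43 CPM per kb with FK866 and 31.6 ± 3.29 in controls (SD, n = 2 each). Stk11 followed at 15.8 ± 1.96 with FK866 and 16.4 ± 2.72 in controls. Sesn1, Prkag1, Sesn2 and Prkaa1 formed a run of levels from 11.8 down to 9.33 CPM per kb with FK866, in which each overlapped the next. In controls the run of overlapping neighbours was Prkag1, Sesn2, Prkaa1 and Tsc2, from 10.2 down to 7.42 CPM per kb. Tsc1 lay at 7.67 ± 0.771 CPM per kb with FK866 and 3.87 ± 0.593 in controls, which brought it close to Tsc2 at 8.59 ± 0.428 with FK866 and away from it in controls, where Tsc2 was at 7.42 ± 1.15. Sesn3 was at 5.89 ± 0.203 CPM per kb with FK866 and 3.22 ± 0.158 in controls. Ddit4 was last, at 1.58 ± 0.629 CPM per kb with FK866 and 1.91 ± 1.12 in controls. The place of the long genes depends on the length used: with the longest transcript, Tsc2 was at 13.2 with FK866 and 11.4 in controls, Tsc1 at 11.8 with FK866 and 5.95 in controls, and Sesn3 at 9.85 with FK866 and 5.39 CPM per kb in controls.

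The genes whose pattern over the 4 libraries lay nearest to that of Sesn3 and Tsc1 were taken from 8276 abundant protein-coding genes by the Euclidean distance between centred log2 CPM values. Among those nearest to Sesn3 were Dennd3 (distance 0.0288), Creb1 (0.0517) and Lcorl (0.0618). Those nearest to Tsc1 were Rlf (0.0332), Zbtb43 (0.0518), Sit1 (0.0592) and Tet2 (0.0596). Being chosen for a like pattern, these 7 genes had positive fold changes, 0.86 to 1.03 on the log2 scale, and 4 libraries carry little detail beyond that change.

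The RefSeq promoter windows of the 10 genes (11 windows, as Sesn1 has 2, each from 250 bases before to 50 after the start) were searched on both strands for 5 short motifs. The CCAAT box (CCAAT) was found in 7 windows, 4 times in Sesn3, and in 37.4% of 32851 promoters of the same length. The CRE core (TGACG) was found in 4 windows, those of Tsc1, Prkag1, Stk11 and the downstream start of Sesn1, and in 20.8% of all promoters. The FOXO motif (GTAAACA) was found in the windows of Stk11 and of the upstream start of Sesn1, both just after the start, and in 3.65% of all promoters. It was in neither window of the pair that rose, Tsc1 and Sesn3, printed in part above. For Sesn3 the bases around the upstream start of the annotated gene were not searched. The C/EBP-ATF element (TGATGNAA, in 3.97% of all promoters) and the E-box (CACGTG, in 7.15%) were in none of the 11 windows. A match says only that these letters are present, and no match that they are absent from this window.

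**Figure D5:**
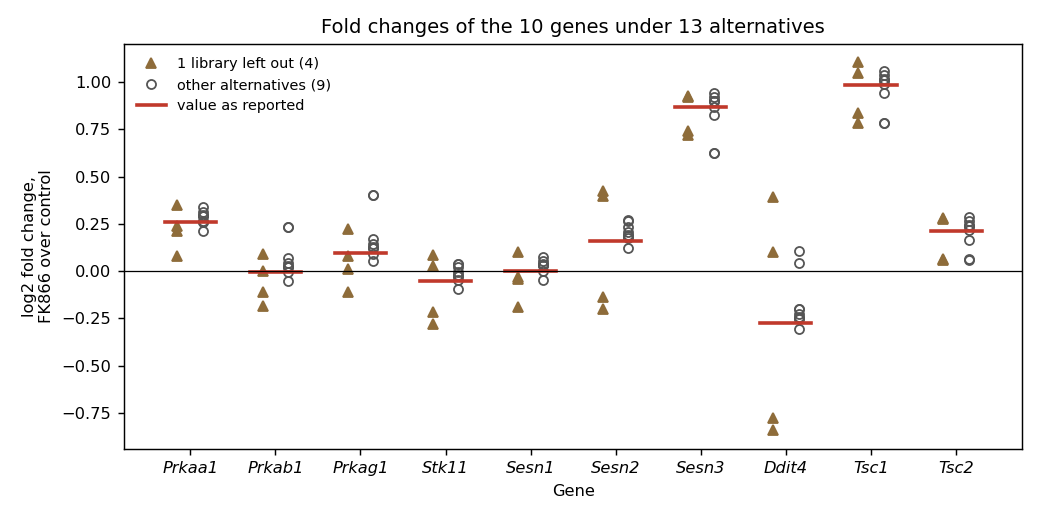
Log2 fold change of FK866 over control for each of the 10 genes as reported (red bars), with 1 of the 4 libraries left out (triangles) and under 9 other alternatives (circles). Tsc1 (0.78 to 1.10) and Sesn3 (0.63 to 0.94) stay above 0 throughout, while Ddit4 (-0.84 to 0.39) and Sesn2 (-0.20 to 0.43) cross 0.

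Under all 13 alternatives shown, Tsc1 and Sesn3 were called higher and none of the other 8 genes was called. Prkaa1 (0.08 to 0.35) and Tsc2 (0.06 to 0.29) kept a positive value under all 13 without passing, whereas Prkab1, Prkag1, Stk11, Sesn1, Sesn2 and Ddit4 changed sign under at least 1.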

How the data were processed

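RNA was taken with TRIzol, cDNA was made with SMART-Seq HT and libraries with Nextera XT, per the labels' protocols, a route that does not mark the strand. The authors deposited a table of 4 libraries with raw counts of reads for each Ensembl gene. cutadapt 1.9, HISAT2 2.2.1 and build mm10 are named in the submitters' processing notes; the counting program is not named in the sources used here. Symbols (55227 of 55487 IDs), positions and lengths came from GENCODE M21 (GRCm38), and promoters from RefSeq (GRCm38.p6).

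Counts were tested with edgeR 4.0.16 in R 4.3.3 (glmQLFit, glmQLFTest, two-sided, TMM, treatment as the only term), on genes kept by filterByExpr (count of at least 10, total of at least 15). P-values were adjusted over all 19194 tested genes. Each SE was computed as the absolute log2 fold change over the root of the F statistic. Alternatives were DESeq2 1.42.0, other scalings and filters, each library left out, a replicate block, and the length and GC trend removed by offsets. The members and lists were chosen with earlier results of these data known, and the motifs after the promoters had been seen. Named genes were the 10 members, up to 4 called genes per pathway list by adjusted p (otherwise the 2 most abundant), the most abundant markers, and the 4 genes most alike in pattern to Sesn3 and to Tsc1, of which some results are not reported here. Genes named beyond this rule complete a complex, a count or the directions seen in a list.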

Additional observations from a re-analysis of the deposited data

How the results depend on the processing

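Under all 13 alternatives Tsc1 and Sesn3 were the genes called among the 10. Over all genes, the number called higher was 1735 with the stricter filter (at least 1 CPM in at least 2 libraries), 1583 after removal of the length and GC trend, and 661 to 1457 when single libraries were left out, against 1020 as reported. The number called lower was 828 to 2462 when single libraries were left out, against 1514. Fold changes rose with transcript length over 9296 protein-coding genes (rho = 0.332 by Spearman; genes are no independent replicates). Removing that trend moved the median log2 fold change of all tested genes to 0.13 and put Tsc1 at 0.78 and Sesn3 at 0.63, both called. With the longest transcript in place of all exons, a choice made after seeing the data, the mean share of Sesn3 among sestrins was 31.2% with FK866 and 20.7% in controls, in place of 21.7% with FK866 and 13.8% in controls.

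Genes that did not pass changed sign in places, and the cause was not tested. Prkab1 was at 0.020 with DESeq2 size factors and with DESeq2, 0.044 with library totals, 0.026 with upper-quartile scaling, 0.068 with the stricter filter, 0.23 without the length and GC trend (also 0.23 with the block added), and -0.18 to 0.091 when single libraries were left out. Stk11 was at 0.020 with the stricter filter, 0.037 without the trend (with and without the block), and -0.28 to 0.088 when single libraries were left out. Ddit4 was at 0.045 without the trend, 0.10 with the block added, and -0.84 to 0.39 when single libraries were left out. Sesn1 was at -0.048 with no filter and Psat1 at -0.034. Without the trend Phgdh was at 0.098 (0.097 with the block added) and Foxo3 at -0.016 (-0.025 with the block added). When single libraries were left out, Sesn1 was at -0.19 to 0.10, Sesn2 at -0.20 to 0.43, Prkag1 at -0.11 to 0.22, Rheb at -0.12 to 0.26 and Psat1 at -0.22 to 0.14.

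The replicate numbers are shared between the groups, but no label says that they pair the samples. Deviations of same-numbered libraries from their group means had a correlation of 0.234 across genes. With a replicate block 2197 genes were called higher and 3059 lower, and 2589 were called higher with the block and the trend removed together. Tsc1 (0.99) and Sesn3 (0.87) were called with the block as well, and the other 8 genes were not. With 2 libraries a group, Ddit4, at 64 to 172 counts, and Sesn2, whose replicates differed, were the least well resolved.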
